A study of Mus musculus with 6 samples.

Results

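The Ifitm family of interferon-induced transmembrane proteins was followed in RNA-seq of sorted mouse hematopoietic stem cells (HSCs) of the bone marrow. Its 6 genes, Ifitm1, Ifitm2, Ifitm3, Ifitm6, Ifitm7 and Ifitm10, were taken by gene symbol from 21851 genes listed in every library. The libraries form 2 groups of 3. The IR group comes from mice that received ionizing radiation, and the Ctrl group from control mice. All of them are labelled wild type, and the cells were sorted by one gate, lineage-negative, Sca-1+, c-Kit+, CD150+, Flt3- and CD48-. The sources used here do not give the radiation dose, the time until sorting, or the age, strain and number of mice behind a library. Nor do the labels say whether a group's libraries stem from different mice, so each p-value reflects only the spread among these libraries, which may be technical. The comparison asks how the RNA of each paralog differs in HSCs after irradiation, in a series whose title speaks of premature ageing.

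Ifitm proteins are small membrane proteins that share a CD225 domain, with an amphipathic helix that stiffens the membrane it lies in and hinders the fusion of enveloped viruses. Ifitm1 sits mostly at the cell surface, whereas Ifitm2 and Ifitm3 carry an endocytosis signal and act in endosomes and lysosomes. Type I and type II interferons induce several members through JAK kinases, STAT proteins and IRF9, and stem cells of several tissues are known to express some members without added interferon.

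The paralogs differ by how much of their sequence they share, which bears on whether reads can be told apart. The most alike ungapped stretch of 90 coding bases, written 5′ to 3′ from the longest coding sequence of each gene in GENCODE M21 (GRCm38), lies in all 6 genes; capitals mark bases that differ from Ifitm3.
Ifitm1: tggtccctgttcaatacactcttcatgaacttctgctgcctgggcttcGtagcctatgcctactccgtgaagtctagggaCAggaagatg
Ifitm2: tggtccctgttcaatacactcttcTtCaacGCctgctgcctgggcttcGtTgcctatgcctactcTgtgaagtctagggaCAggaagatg
Ifitm3: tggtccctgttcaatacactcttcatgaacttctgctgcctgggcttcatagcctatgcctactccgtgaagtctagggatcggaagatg
Ifitm6: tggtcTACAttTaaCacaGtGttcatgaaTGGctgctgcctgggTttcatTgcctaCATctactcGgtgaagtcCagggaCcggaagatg
Ifitm7: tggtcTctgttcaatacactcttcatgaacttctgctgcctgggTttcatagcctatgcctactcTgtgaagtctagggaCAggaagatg
Ifitm10: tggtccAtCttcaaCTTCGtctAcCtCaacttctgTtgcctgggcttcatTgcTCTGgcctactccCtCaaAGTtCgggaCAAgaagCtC

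In this stretch Ifitm1 differed from Ifitm3 at 3 bases, Ifitm7 at 5, Ifitm2 at 9, Ifitm6 at 19 and Ifitm10 at 27. Over the whole aligned coding sequence, Ifitm1 and Ifitm7 were the closest pair of members, with 89.3% identical bases, and Ifitm6 and Ifitm10 the most distant, with 59.2%. No run of 100 bases was shared between transcripts of different members on either strand, and at 50 bases Ifitm3 shared 35 of its 629 runs with another member. Ifitm2 was the least separable from genes outside the list. Of its 100-base runs, 34.9% also occur in the overlapping same-strand gene Gm45717 or in the processed pseudogenes Gm11951 and Gm8865, none of which has a row in the deposited tables. For Ifitm1, Ifitm3 and Ifitm6 this share was 0 at 100 bases, within annotated transcripts. Ifitm7 overlaps the opposite-strand gene 2900011O08Rik by 285 bases, and Ifitm10 overlaps the same-strand gene Gm49369. The library kit keeps strand, per the labels' protocols; whether the counting used it is not stated in the labels.

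The depth behind these values could be worked out from the deposited FPKM (fragments per kilobase of transcript, scaled to the mapped fragments of the library). Genes with equal numbers of fragments in a pair of libraries share exactly 1 ratio of FPKM, which gives the relative depths. With these, all 14101 genes above 0 in at least 3 libraries came out as whole numbers of fragments in every library, the largest distance from a whole number being 3.83e-05. These fragments summed to between 14215689 and 15624775 in the IR libraries and between 14280385 and 16106858 in the Ctrl libraries. A factor common to all 6 libraries of a gene would not be seen. Libraries of a group differed by more than counting noise, with a median chi-square of 1.42 to 1.65 times its expectation among IR pairs and 1.37 to 1.44 times among Ctrl pairs. RNA of stem cell genes was present, the summed level of 8 HSC markers such as Procr and Mecom being 104 to 109 FPKM in IR libraries and 126 to 128 FPKM in Ctrl libraries. RNA of Cd48 and Flt3, whose proteins the gate excludes, was present in both groups, at 352 ± 8.003 and 65.7 ± 1.43 FPKM in IR HSCs against 400.1 ± 3.36 and 125 ± 1.58 FPKM in Ctrl HSCs (SD, n = 3 each). Of the proteins the gate requires, CD150 (Slamf1) had far less RNA than Cd48, and more in IR HSCs, at 5.06 ± 0.443 against 3.57 ± 0.409 FPKM. Sca-1 (Ly6a) had 157 ± 5.17 FPKM in IR HSCs against 203 ± 5.13 in Ctrl HSCs. Kit had 96.7 ± 1.65 FPKM in IR HSCs against 97.5 ± 1.72 in Ctrl HSCs.

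Irradiated HSCs carried less RNA of Ifitm1, Ifitm2, Ifitm3 and Ifitm6, and the paralogs differed widely in the size of the fall, from about 10.3% for Ifitm2 to 67.2% for Ifitm6. Ifitm7 and Ifitm10 were also lower in every IR library than in any Ctrl library, but at levels of few fragments. The first 3 are among the most abundant RNAs of these cells. The 6 genes together made up 0.810% ± 0.0136 of the FPKM of an IR library and 1.02% ± 0.0196 of that of a Ctrl library (SD, n = 3 each), which did not overlap (exact 2-sided permutation p = 0.1, the smallest that 3 against 3 allow). In bulk RNA, fewer cells of a type and less RNA per cell cannot be told apart.

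**Figure D1:**
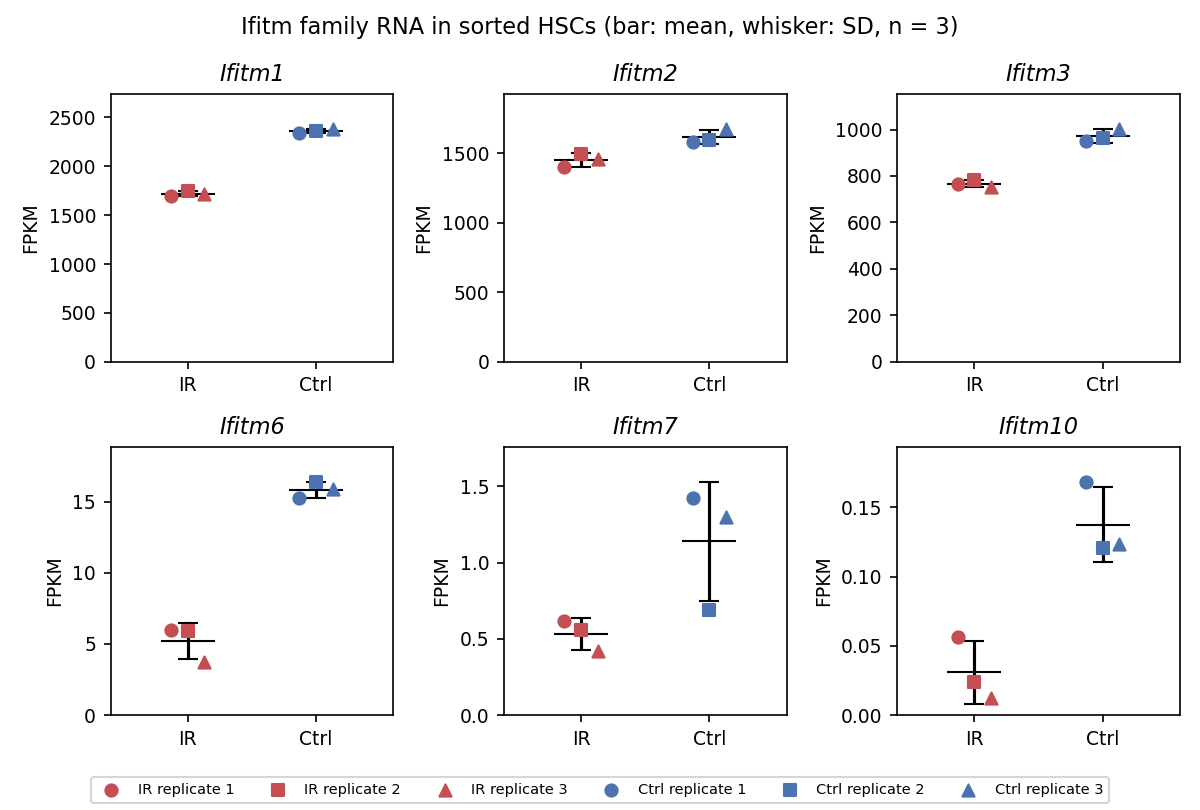
FPKM of each Ifitm gene in the 3 IR libraries (left) and the 3 Ctrl libraries (right), with 1 marker per library, the mean as a bar and the SD as whiskers; each panel has its own axis from 0. In all 6 genes the IR libraries lie below the Ctrl libraries. The highest IR and lowest Ctrl libraries come close in Ifitm2, at 1497 against 1579 FPKM, and in Ifitm7, at 0.618 against 0.692 FPKM.

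Differences were tested with limma on log2(FPKM + 1) over the 10281 genes that reached 1 FPKM in 3 or more libraries, with Benjamini-Hochberg adjustment over all of them and a threshold of 0.05. Of the 6 members, 4 passed this filter, each with 1 FPKM or more in all 6 libraries, and all 4 fell; of all tested genes, 54.7% were called, 28.9% lower and 25.8% higher. The groups did not overlap for any member, against 61.7% of the tested genes, 32.5% with the IR libraries below the Ctrl libraries. The median log2 fold change of all tested genes was -0.01, and 90% of them lay between -0.44 and 0.34.

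Ifitm1, the surface member of the family, had 1698, 1751 and 1712 FPKM in IR replicates 1 to 3, against 2343, 2361 and 2385 FPKM in Ctrl replicates 1 to 3. It ranked between 10 and 12 among all genes in the IR libraries, and between 5 and 6 in the Ctrl libraries. These levels rest on 23050, 22260 and 21145 fragments in IR HSCs and 29793, 33030 and 29588 in Ctrl HSCs. The groups stood far apart compared with their spread, at 1.603% of the mean in IR HSCs and 0.898% in Ctrl HSCs, above the 0.672% and 0.570% that counting alone would give. The log2 fold change was -0.46 (SE 0.016, 95% confidence interval -0.49 to -0.42, limma with Benjamini-Hochberg adjusted p = 2.41e-08), and 481 of the tested genes had a lower value. Ifitm1 is annotated on the plus strand of chromosome 7 from 140967221 to 140969825 (GRCm38).

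Ifitm3, the endosomal member known for restricting influenza virus, had 767, 783 and 752 FPKM in IR HSCs against 949, 963 and 1004 FPKM in Ctrl HSCs. It ranked 70 to 73 in IR libraries and 48 to 52 in Ctrl libraries. Every IR library lay below every Ctrl library, and the log2 fold change was -0.34 (SE 0.024, limma with Benjamini-Hochberg adjusted p = 2.29e-06). The gene lies on the minus strand of chromosome 7 from 141009586 to 141010770.

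Ifitm2, a close relative of Ifitm3, changed least among the tested members. Its levels were 1402, 1497 and 1457 FPKM in IR HSCs against 1579, 1597 and 1679 FPKM in Ctrl HSCs, ranking 17 to 20 and 15 to 18. The groups did not overlap, and the highest IR library, replicate 2, stood closest to the lowest Ctrl library, replicate 1. Its spread, 3.28% of the mean in IR HSCs and 3.27% in Ctrl HSCs, was above the counting error of 0.857% and 0.807%. The log2 fold change was -0.16 (SE 0.028, 95% confidence interval -0.22 to -0.09, limma with Benjamini-Hochberg adjusted p = 0.000925), and 2490 tested genes had a lower value. This call was lost with quantile normalization (log2 fold change -0.06, adjusted p = 0.109) and without a filter on low values (adjusted p = 0.0571). Ifitm2 lies on the minus strand of chromosome 7 from 140954837 to 140955987.

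Ifitm6, a mouse member known from myeloid cells, had the largest fall of the tested members. It had 5.97, 5.88 and 3.73 FPKM in IR HSCs against 15.3, 16.4 and 15.9 FPKM in Ctrl HSCs. The lowest IR library was replicate 3, and all IR libraries lay well under the Ctrl libraries. Behind these values stand 51, 47 and 29 fragments in IR HSCs and 122, 144 and 124 in Ctrl HSCs. The log2 fold change was -1.46 (SE 0.12, limma with Benjamini-Hochberg adjusted p = 7.40e-06), and only 6 of 10281 genes had a lower one; it was -1.28 without IR replicate 3. Ifitm6 lies on the minus strand of chromosome 7 from 141015699 to 141017924.

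Markers of myeloid cells moved with it in part. The summed level of 12 monocyte and macrophage markers was 721 to 738 FPKM in IR libraries and 820 to 828 FPKM in Ctrl libraries; 7 of the 10 tested fell and 1 rose, none was at 0, and Fcgr1 was under 1 FPKM in every library. The summed level of 12 neutrophil markers was 6102 to 6265 FPKM in IR libraries and 5320 to 5354 FPKM in Ctrl libraries, with none at 0. Of these, 6 rose, namely the granule protein genes Mpo, Elane, Prtn3, Ctsg and Lcn2 and the transcription factor gene Cebpe, and 6 fell, namely Ngp, Camp, Ltf, S100a8, S100a9 and Retnlg. Ltf and Retnlg reached 1 FPKM in Ctrl libraries only, as did the monocyte marker Adgre1, so they could be tested only because they were higher there. Lcn2 had 22.8 ± 1.24 FPKM in IR HSCs against 13.2 ± 1.11 FPKM in Ctrl HSCs, and Ngp 2.96 ± 0.157 FPKM in IR HSCs against 9.21 ± 0.944 FPKM in Ctrl HSCs (SD, n = 3 each). The sum of 10 lymphoid markers was 195 to 199.7 FPKM in IR libraries against 471 to 480.1 FPKM in Ctrl libraries. Most of that sum was Dntt, at 177 ± 2.97 FPKM in IR HSCs and 430 ± 6.62 FPKM in Ctrl HSCs (SD, n = 3 each), while Cd79a rose by 0.26 on the log2 scale, and Rag1, Cd3e and Cd2 were under 1 FPKM in every library. The sum of 10 endothelial markers was 190.3 to 197 FPKM in IR libraries against 253 to 259.9 FPKM in Ctrl libraries, with Sox17 at 0 and Cdh5 and Kdr under 1 FPKM in every library. Most of that sum was Egfl7, at 109 ± 1.97 FPKM in IR HSCs and 159 ± 1.73 FPKM in Ctrl HSCs (SD, n = 3 each). Of the 7 tested, 4 fell, against 28.9% of all tested genes, and Esam, Tie1 and Plvap were not called. Cldn5, 1 of the 4, reached 1 FPKM in Ctrl libraries only. The sum of 10 megakaryocyte and erythroid markers was 221 to 245 FPKM in IR libraries and 129 to 134 FPKM in Ctrl libraries. The part of these cells in the change of the Ifitm genes was not tested.

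Ifitm7 and Ifitm10 did not pass the filter. Ifitm7, the only member on chromosome 16 (13981699 to 13986888, minus strand), had 0.618, 0.559 and 0.418 FPKM in IR HSCs against 1.42, 0.692 and 1.30 FPKM in Ctrl HSCs. These are 13, 11 and 8 fragments in IR HSCs and 28, 15 and 25 in Ctrl HSCs, so that Ctrl replicate 2 came close to IR replicate 1. Divided by the summed depth, the group totals were 0.720 fragments per 1000000 (exact Poisson 95% interval 0.492 to 1.02) in IR HSCs and 1.51 (1.17 to 1.91) in Ctrl HSCs; such intervals cover counting error only. Ifitm10, a distant member of little known function (chromosome 7, 142325837 to 142373753, minus strand), had 0.0564, 0.0241 and 0.0124 FPKM in IR HSCs against 0.168, 0.120 and 0.123 FPKM in Ctrl HSCs. Here 5, 2 and 1 fragments stood against 14, 11 and 10, or 0.180 fragments per 1000000 (0.0777 to 0.354) in IR HSCs against 0.777 (0.541 to 1.08) in Ctrl HSCs.

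A test that weighs depth, limma-voom on the fragments, was added after the data were seen and covered 12025 genes with at least 10 fragments in at least 3 libraries. It called 55.5% of them, 29.8% lower and 25.7% higher. Ifitm10 reached 10 fragments in the Ctrl libraries only, so it could enter this test only by being higher there, and its log2 fold change of -2.10 (SE 0.48, voom Benjamini-Hochberg adjusted p = 0.000383) is given as a description. Ifitm7, with 10 fragments or more in libraries of both groups, was lower (log2 fold change -0.99, SE 0.34, voom adjusted p = 0.0133), but this call was lost without IR replicate 3 (adjusted p = 0.0685) and without Ctrl replicate 1 (adjusted p = 0.0757). The other 4 members gave -0.46 for Ifitm1, -0.16 for Ifitm2, -0.34 for Ifitm3 and -1.62 for Ifitm6, past the threshold in this test as well.

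**Figure D2:**
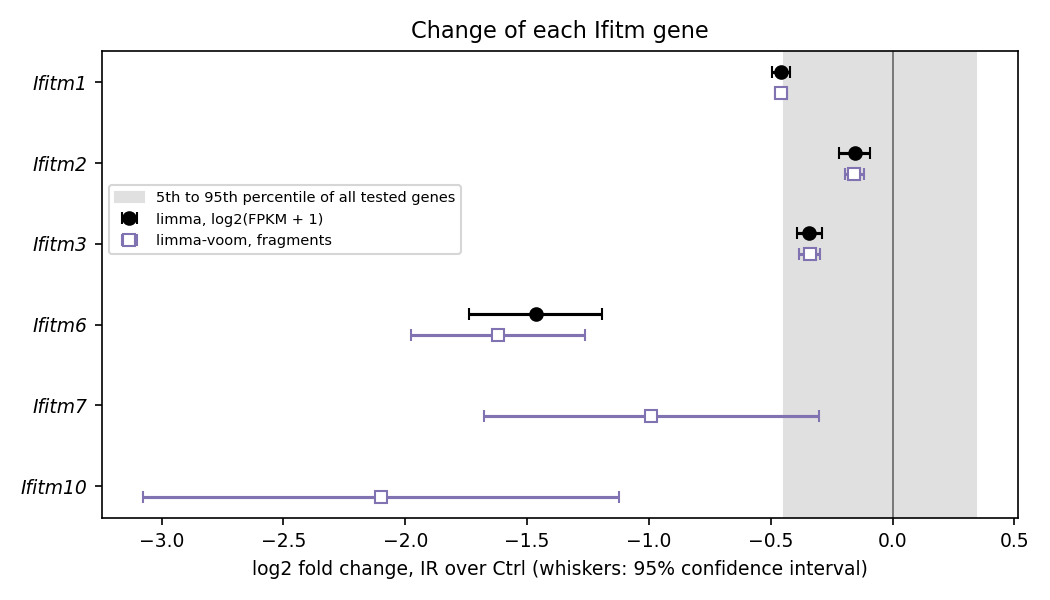
Log2 fold change of each Ifitm gene, IR over Ctrl, with 95% confidence intervals: black circles from limma on log2(FPKM + 1), open squares from limma-voom on fragments, and in grey the range that holds 90% of all tested genes. Ifitm2 and Ifitm3 lie inside the grey range, Ifitm1 just below its lower edge, and Ifitm6 at -1.46 far below it; Ifitm7 and Ifitm10 have only the fragment-based value.

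Because the paralogs fell by different amounts, the makeup of the family's RNA shifted. Ifitm1 made up 43.8%, 43.4% and 43.6% of the summed family FPKM in IR libraries against 47.9%, 47.8% and 46.9% in Ctrl libraries. Ifitm2 held 36.2%, 37.1% and 37.1% in IR libraries against 32.3%, 32.3% and 33.0% in Ctrl libraries. Neither share overlapped between the groups (exact 2-sided permutation p = 0.1 each, the smallest possible), whereas the share of Ifitm3, 19.4% ± 0.325 in IR libraries and 19.6% ± 0.172 in Ctrl libraries (SD, n = 3 each), did overlap (exact permutation p = 0.7). Within a library, the log2 ratio of Ifitm1 to Ifitm2 was 0.28, 0.23 and 0.23 in IR HSCs against 0.57, 0.56 and 0.51 in Ctrl HSCs, a difference of -0.30. The log2 ratio of Ifitm1 to Ifitm3 differed less, at 1.17 ± 0.021 in IR HSCs against 1.28 ± 0.030 in Ctrl HSCs (SD, n = 3 each). The ratio of Ifitm2 to Ifitm3 was higher in IR HSCs, by 0.19 on the log2 scale, and those of Ifitm1, Ifitm2 and Ifitm3 to Ifitm6 by 1.18, 1.48 and 1.30. In all 6 pairs among these 4 genes the groups did not overlap, with an exact permutation p = 0.1 each and 0.1 after Benjamini-Hochberg adjustment over the 6 pairs, which the design cannot go below.

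**Figure D3:**
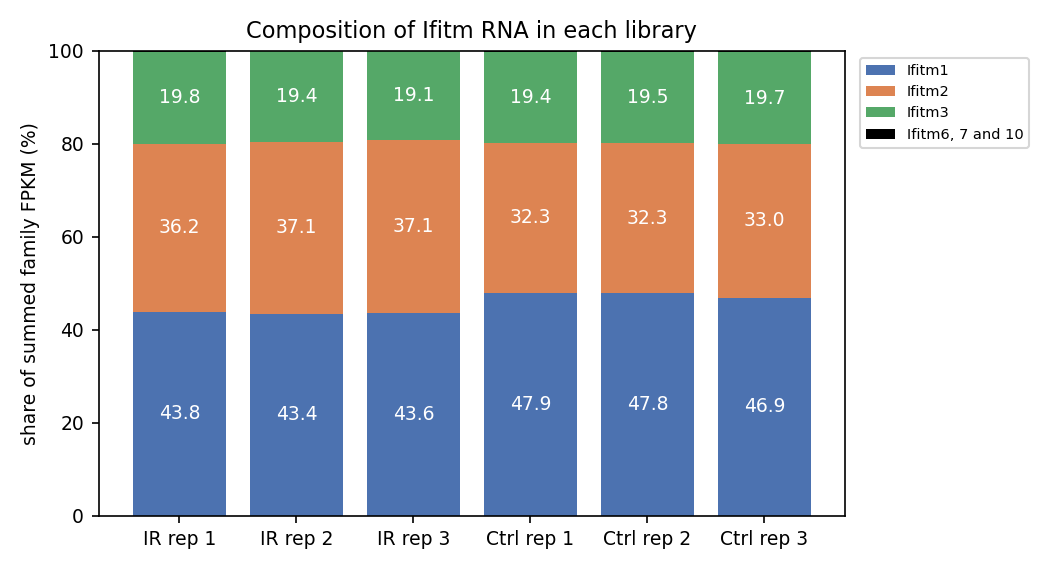
Share of each gene in the summed FPKM of the 6 Ifitm genes, in percent, 1 stacked bar per library, IR libraries left of Ctrl libraries. Ifitm1 takes 43.4% to 43.8% in IR libraries and 46.9% to 47.9% in Ctrl libraries, Ifitm2 takes 36.2% to 37.1% in IR libraries and 32.3% to 33.0% in Ctrl libraries; Ifitm6, Ifitm7 and Ifitm10 together are too small to see.

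On the FPKM scale the order of levels was the same in all 6 libraries, Ifitm1, Ifitm2, Ifitm3, Ifitm6, Ifitm7 and Ifitm10 from high to low, and no neighbours in this order overlapped within a group. The order of the first pair rests on the lengths behind the FPKM. The fragments imply a length of about 869 bases for Ifitm1 and 633 for Ifitm2, while the joined exons in GENCODE M21 measure 1094 and 655 bases. Rescaled to the latter, a check added after the data were seen, Ifitm1 and Ifitm2 came to 1366 ± 21.9 and 1404 ± 46.0 FPKM in IR HSCs and to 1876 ± 16.8 and 1565 ± 51.2 FPKM in Ctrl HSCs (SD, n = 3 each), so that Ifitm2 led in IR HSCs. The fold changes do not depend on these lengths.

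Ifitm5, the bone-restricted member of the cluster, is not among the 6 genes and was near the limit of detection. It had 5, 7 and 7 fragments in IR HSCs against 1, 0 and 1 in Ctrl HSCs, the opposite direction to its neighbours, and no fold is given at such counts. Gm45717 overlaps it on the same strand; how many of these fragments stem from that gene was not tested. Of the 8 other CD225 genes with a row, Ifitm5 included, none reached 1 FPKM in 3 libraries; Tmem91 was the highest, at 0.711 ± 0.0887 FPKM in IR HSCs and 0.908 ± 0.0471 FPKM in Ctrl HSCs (SD, n = 3 each).

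Genes of the interferon pathway, which is known to induce the family, were examined next, in lists set beside the 28.9% of all tested genes called lower and 25.8% called higher. Interferon ligand genes gave almost no RNA: Ifnb1, Ifna1, Ifna2, Ifna4, Ifng and Ifne were listed at 0 in every library. All 5 tested interferon receptor genes fell, with a median log2 fold change of -0.26. Ifnar2, a chain of the type I receptor, had 31.6 ± 1.28 FPKM in IR HSCs against 40.8 ± 0.439 FPKM in Ctrl HSCs, and Ifngr2, of the type II receptor, 22.4 ± 0.643 against 28.8 ± 0.913 FPKM (SD, n = 3 each). Ifngr1, at 145 ± 1.47 against 160 ± 1.41 FPKM, and Ifnar1 had log2 fold changes of -0.14 and -0.26.

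Of 11 genes for JAK kinases, STAT proteins and IRF factors, 6 fell, 1 rose and 4 were not called (median -0.18). Irf9, the DNA-binding part of the complex that type I interferon activates, had 33.1 ± 0.970 FPKM in IR HSCs against 45.7 ± 1.53 FPKM in Ctrl HSCs. Irf1 and Irf8 had log2 fold changes of -0.37 and -0.45, and Irf7 one of -1.29, near that of Ifitm6. Inhibitors of the pathway fell in 5 of 6 cases (median -0.27), with Usp18 at -0.56, Socs1 at -0.54, Socs3 at -0.40 and Ptpn6 at -0.15; the levels of Ptpn6 were 187 ± 2.40 FPKM in IR HSCs and 207 ± 0.807 FPKM in Ctrl HSCs.

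Among 18 tested antiviral effectors that interferon induces, 12 fell, none rose and 6 were not called (median -0.27). Oasl2, of the oligoadenylate synthetase family, had a log2 fold change of -0.81, and Samhd1, a nucleotide hydrolase that limits retroviruses, and Oas1a had -0.54 and -0.37. Ifit3, an RNA-binding effector, had 0.491 ± 0.107 FPKM in IR HSCs against 1.72 ± 0.136 FPKM in Ctrl HSCs (SD, n = 3 each; log2 fold change -0.87). It was the 1 gene of the 18 that reached 1 FPKM in Ctrl libraries only, so it could be tested only because it was higher there. The effectors nearest to Ifitm1 to Ifitm3 in abundance changed little. Ly6e, a surface protein that limits coronavirus entry, had 786 ± 10.5 FPKM in IR HSCs against 836 ± 9.25 FPKM in Ctrl HSCs. Its log2 fold change of -0.09 was small but called (limma with Benjamini-Hochberg adjusted p = 0.00186). Bst2, the tetherin that holds virus particles at the surface, was not called, at 105 ± 2.97 FPKM in IR HSCs and 109 ± 2.10 FPKM in Ctrl HSCs (SD, n = 3 each; limma with Benjamini-Hochberg adjusted p = 0.119). The part of interferon signalling in the fall of the Ifitm genes was not tested.

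Partners and modifying enzymes of Ifitm proteins moved in both directions: 4 of the 12 tested genes rose, 4 fell, and the other 4 missed the threshold (median -0.01). These shares are near those of all tested genes. Setd7, 1 of the 4 that fell, reached 1 FPKM in Ctrl libraries only. Zdhhc20, a palmitoyltransferase that acts on IFITM3, had 20.8 ± 0.0892 FPKM in IR HSCs against 27.9 ± 0.986 FPKM in Ctrl HSCs, and Nedd4, a ubiquitin ligase that promotes turnover of IFITM3, had 37.1 ± 0.800 FPKM in IR HSCs against 29.3 ± 0.418 FPKM in Ctrl HSCs (SD, n = 3 each). The tetraspanin Cd81, a surface partner of IFITM1, had a log2 fold change of -0.14 at 209.7 ± 7.98 FPKM in IR HSCs against 230.5 ± 1.73 FPKM in Ctrl HSCs, while Cd9, another tetraspanin, rose by 0.28, to 128 ± 4.16 FPKM against 105 ± 2.11 FPKM. Kdm1a, a lysine demethylase, rose by 0.24. Vcp, a segregase of ubiquitinated proteins, rose by 0.17, to 252 ± 4.14 FPKM in IR HSCs against 223 ± 4.84 FPKM in Ctrl HSCs. Vapa, a contact-site protein that IFITM3 binds, and Ap2m1, an endocytic adaptor, were not called, at 162 ± 1.37 and 120.3 ± 2.64 FPKM in IR HSCs and 164 ± 3.35 and 116 ± 1.77 FPKM in Ctrl HSCs.

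**Figure D4:**
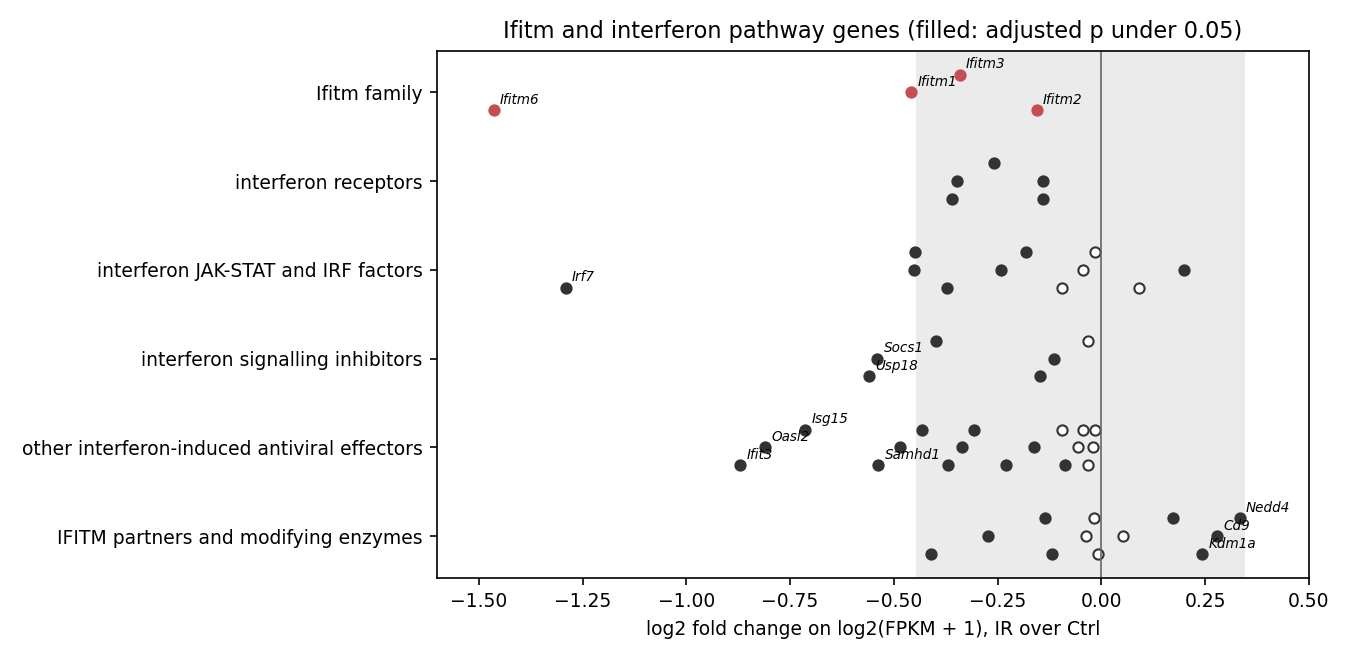
Log2 fold change on the log2(FPKM + 1) scale, IR over Ctrl, of the 4 tested Ifitm genes (red) and of other tested genes. These belong to the interferon receptor, JAK-STAT and IRF, inhibitor and effector lists and to the partners and modifying enzymes of Ifitm proteins. There is 1 point per gene, filled where the adjusted p is under 0.05, and the grey band holds 90% of all tested genes. All 5 receptor genes lie below 0, Irf7 at -1.29 is the point nearest to Ifitm6, and the partners lie on both sides of 0.

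The start regions of the members differ in interferon-type motifs. RefSeq promoters (GRCm38.p6, 250 bases before to 50 bases after the start, found for all 6 members) were searched on both strands for the core of the interferon-stimulated response element, spelled GAAA, any 2 bases, GAAA, and for the gamma-activated site, spelled TTCNNNGAA. Of 32851 promoters, 3.44% hold the first and 8.30% the second. Ifitm3 holds the first 2 times and the second once, Ifitm2 holds the first once, and Ifitm6 holds the second once; neither lies in these windows of Ifitm1, Ifitm7 or Ifitm10. The 30 bases around the matches are shown 5′ to 3′ on the strand of the gene, with matched letters in capitals; in Ifitm3 the gamma-activated site overlaps the last response element.
Ifitm3, chr7:141010715-141010744: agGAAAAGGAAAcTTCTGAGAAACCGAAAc
Ifitm2, chr7:140955989-140956018: cccaccaacagGAAAAGGAAAttgctagag
Ifitm6, chr7:141016883-141016912: ccatatgaacTTCCTTGAAacaagagcttc

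Counted from the RefSeq start, the Ifitm3 stretch covers bases 1 to 30 and thus follows the start, the Ifitm2 stretch covers bases -57 to -28, and the Ifitm6 stretch bases -20 to 10. RefSeq starts are not always the GENCODE gene ends given above: the windows searched run from 140967826 to 140968125 for Ifitm1 and from 141016843 to 141017142 for Ifitm6, so both lie inside the GENCODE gene. Beside these letters, the log2 fold changes were -0.34 for Ifitm3, -0.16 for Ifitm2, -1.46 for Ifitm6 and -0.46 for Ifitm1, which has no match. A match is a description of letters only.

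Genes near the cluster on chromosome 7 were examined next. Within 100 kb of the start of Ifitm2, Ifitm1, Ifitm3 or Ifitm6 there were 7 genes that could be tested, of which 3 fell, 1 rose and 3 were not called, a share of calls near the 54.7% of all tested genes. Sirt3, a mitochondrial deacetylase whose start lies at -73.7 kb from that of Ifitm2, had 86.5 ± 1.59 FPKM in IR HSCs against 119 ± 1.38 FPKM in Ctrl HSCs, a log2 fold change of -0.46. Psmd13, a proteasome subunit that starts at -74.0 kb on the other strand, rose by 0.09. Bet1l and Ric8a, on the same side of the cluster, were not called, at -0.02 and -0.07. On the far side, Sigirr, an inhibitor of interleukin-1 receptor signalling, and Pkp3, a desmosome protein, had log2 fold changes of -0.40 and -0.27. B4galnt4, also on that side, was not called at 0.05. Near Ifitm10, the leukocyte actin-binding gene Lsp1 had a log2 fold change of -0.66, while Ctsd, the nearest, was not called at 0.03. Tnni2, a troponin gene, had 0.464 ± 0.129 FPKM in IR HSCs against 1.23 ± 0.154 FPKM in Ctrl HSCs (SD, n = 3 each), and passed the filter through the Ctrl libraries only. Near Ifitm7, Pdxdc1 rose by 0.11.

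**Figure D5:**
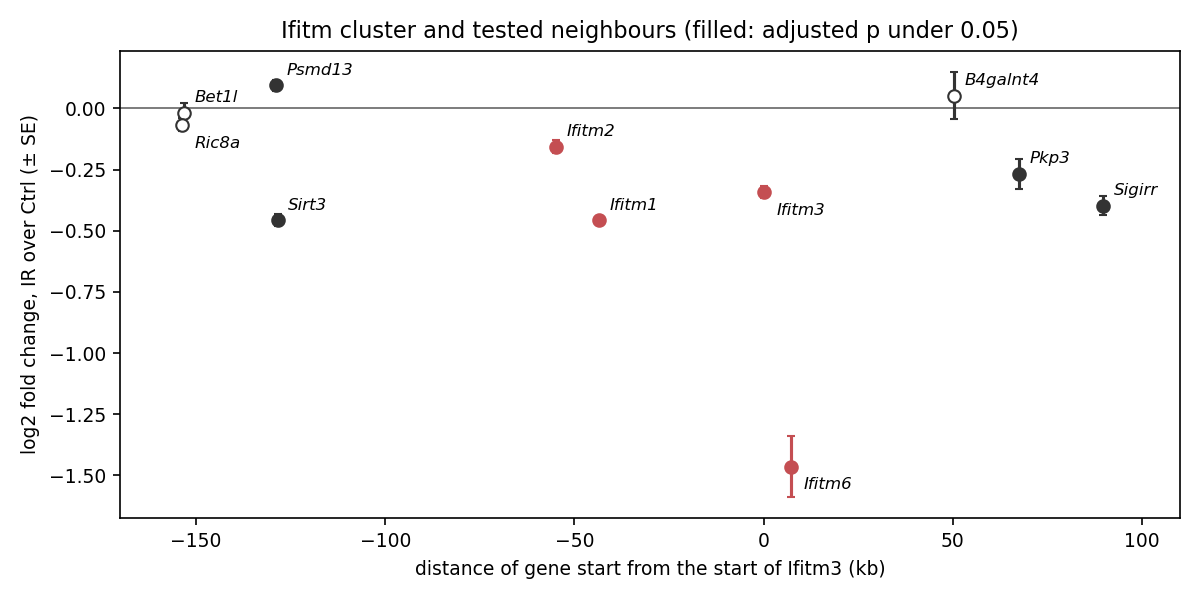
Log2 fold change, IR over Ctrl, with SE, against the distance in kb of each gene's start from that of Ifitm3, for the 4 clustered Ifitm genes (red) and the tested neighbours (black; open where not called). Sirt3 at -0.46 and Psmd13 at 0.09 lie at nearly the same distance and on opposite sides of 0, and Ifitm6 is the lowest point.

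The genes most like the abundant members across libraries were sought among the 4065 genes that averaged 20 FPKM or more, by the Euclidean distance of log2(FPKM + 1) centred on the gene's mean over the 6 libraries. The 3 nearest to Ifitm1 were Pdk1, Sirt3 and Cxxc5, at distances of 0.032, 0.042 and 0.052. Sirt3 thus stood both near Ifitm1 on the chromosome and near it in pattern. The 3 nearest to Ifitm2 were Plin3, S100a10 and Ccdc117, at 0.026, 0.029 and 0.030, and the 3 nearest to Ifitm3 were Fam89b, Sepp1 and Ube2e3, at 0.051, 0.053 and 0.054. All 9 fell in the same test, with log2 fold changes between -0.46 and -0.15. Since these measures rest on the same 6 libraries in 2 groups, likeness is mostly likeness in the difference between the groups.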

How the data were processed

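The deposited values are FPKM per gene and library. Per the submitters' processing notes, the authors used fastp, HISAT2 and StringTie on GRCm38 (mm10); the sources used here give no versions, annotation or settings, and the unit was inferred from the values. Of 21878 entries, 27 named by a calendar date were left out. Log2(FPKM + 1) of genes that reached 1 FPKM in 3 or more libraries was tested with limma 3.58.1 in R 4.3.3 (empirical Bayes with trend, 2-sided, no replicate block, Benjamini-Hochberg threshold 0.05, no fold minimum), after a test on simulated data. This scale understates changes of low genes, and FPKM of close paralogs may hold misassigned reads. Whole fragments were worked back from FPKM at a tolerance of 0.005. Named are the 6 members, up to 4 genes per pathway list by p and those over 100 FPKM, tested neighbours within 100 kb and the 3 nearest patterns per member at 20 FPKM or more; Ifitm5, Tmem91 and the marker genes lie outside this rule and were chosen after their values were seen. Members and lists were chosen with earlier results of these data known. The alternatives were other pseudocounts, filters, scalings, no trend, a replicate block, each library left out, and limma-voom on fragments. Results on some genes are not reported here.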

Additional observations from a re-analysis of the deposited data

How the results depend on the processing

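The falls of Ifitm1, Ifitm3 and Ifitm6 kept their direction and passed the threshold in each of the 15 alternatives run, with log2 fold changes between -0.47 and -0.44, between -0.36 and -0.32, and between -1.62 and -1.04. Ifitm2 kept its direction in all 15 and passed in 13; it missed the threshold with quantile normalization (-0.064, adjusted p = 0.109) and without a filter on low values (-0.16, adjusted p = 0.0571), and the cause was not tested. With 1 library left out, Ifitm1 lay between -0.47 and -0.45, Ifitm2 between -0.18 and -0.13, Ifitm3 between -0.36 and -0.32 and Ifitm6 between -1.56 and -1.28. The replicate block left the log2 fold changes as they were, at -0.46, -0.16, -0.34 and -1.46, and changed no call of a member. Deviations from the group mean in libraries of equal replicate number had correlations of 0.01, -0.03 and -0.05. With 3 libraries per group, such values show no strong shared shift but cannot tell whether the libraries were paired. The number of JAK-STAT and IRF genes called higher was 2 in place of 1 without a filter, with median-of-ratios scaling, with quantile normalization and without a trend. Partners called lower numbered 4 in the main setting, and between 2 (without Ctrl replicate 1) and 3 with 1 library left out. The IR minus Ctrl difference in the share of Ifitm3, -0.11 percentage points, lay between -0.28 and 0.038 with 1 library left out, turning positive without IR replicate 3. Without a filter on low values, Ifitm7 had a log2 fold change of -0.47 (limma adjusted p = 0.115) and Ifitm10 one of -0.14 (adjusted p = 0.0201) on the log2(FPKM + 1) scale, which understates them; voom gave -0.99 and -2.10. Median-of-ratios scaling and quantile normalization moved the median of all genes by 0.01 and 0.02. Depth limits Ifitm7, Ifitm10 and Ifitm5, which rest on at most 28, 14 and 7 fragments in a library.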
